A study of Homo sapiens with 2 samples.

Results

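The actin and actin-binding genes described here were 10 of the 33538 Ensembl gene rows in a CITE-seq experiment on SH-SY5Y, a human neuroblastoma cell line that was derived by repeated subcloning. They were chosen by name, as the rows that map to the symbols ACTB, ACTG1, TMSB10, PFN1, PFN2, CFL1, MYL6, TPM1, ARPC2 and CAPZB. The cells came from 2 flasks, SplitA and SplitB, both of the same line, both untreated and both grown in the same medium, so there was no comparison of conditions. Each flask carried its own hashtag antibody, the flasks were pooled into 1 library, and hashtag counts are what tells their cells apart. Of 2879 cells, 899 of SplitA and 1195 of SplitB were singlets with at least 1000 detected genes. A singlet had one hashtag at least 3 times the other, with the other at most 185 counts, and 2 cells of the same flask in 1 droplet cannot be seen in this way.

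The described cells held between 1948 and 27205 UMIs in SplitA, with a median of 6063, and between 1801 and 27006 in SplitB, with a median of 6346. The mitochondrial share, the percentage of UMIs from the 13 mitochondrial genes, had a median of 8.64% in SplitA and 8.82% in SplitB. It was 15% or more in 70 cells of SplitA and 104 of SplitB, and these were kept. The study's text, in contrast, states a filter that leaves out cells above 15%. All 10 sympathoadrenal neuroblastoma markers had UMIs in both flasks, as did 9 of 10 mesenchymal-type markers, and the leukocyte markers PTPRC, CD3E and LYZ were at 0. Levels are UMIs per 1000000 UMIs of nuclear-encoded genes, written below as CPM. Intervals are exact 95% intervals, Poisson for levels and Clopper-Pearson for shares, and cover counting error only. Cells of 1 flask are not replicates, so no p-value was computed.

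Actin is a monomer that assembles into filaments, which give a cell its shape, its crawling edge and, in nerve cells, its growth cones. Monomer-binding proteins hold or deliver subunits, branching and capping factors set where filaments grow, cofilin takes them apart, and myosin with tropomyosin turns them into a contractile network. Because actin is needed in every cell, ACTB is widely used as a reference gene in qPCR, which makes its spread from cell to cell of practical interest. Several actin genes are known targets of serum response factor, which binds a short DNA element called the CArG box.

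Promoters of 8 of the 10 genes were found in the RefSeq table (GRCh38.p14), ACTB and PFN2 being the missing entries. A window from 250 bases before to 50 bases after each start was searched on both strands for the CArG box and for the letters TATAAA of a core promoter element. Only ACTG1, as 1 gene of the 8, held a CArG box, 94 bases before a RefSeq start, beside 1.29% of 35116 promoters. The first is a count of genes and the second a share of promoters. The sequence is shown because ACTG1 was also the gene of the group that varied most closely with ACTB in the cells described below. A link between the motif and that co-variation was not tested. The RefSeq start used here lies inside the longer GENCODE span of ACTG1 given below. The printed window is at chr17:81512869-81512908 on the minus strand, and capitals mark the motif.
ACTG1: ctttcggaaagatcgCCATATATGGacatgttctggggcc
The other 7 promoters held no such match, and none of the 8 held TATAAA, which 11.5% of all promoters did.

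The 2 cytoplasmic actins lie apart in the genome (GRCh38, GENCODE release 44). ACTB (ENSG00000075624) is on chromosome 7 from 5526409 to 5563902, and ACTG1 (ENSG00000184009) is on chromosome 17 from 81509413 to 81523847. ACTB stood at 1158 CPM (interval 1130 to 1188) in SplitA, and in SplitB it stood at 1142 (1118 to 1167). ACTG1 stood at 790 (766 to 814) and 808 (788 to 829). ACTB was thus the more abundant cytoplasmic actin in both flasks. The muscle actins ACTA1 and ACTC1 and the actin-like gene ACTBL2 had no UMI in either flask, and ACTA2 had 9 UMIs in SplitA and 21 in SplitB.

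Among the proteins that bind monomers, TMSB10 (chromosome 2, 84905656 to 84906671), a thymosin that keeps monomers out of filaments, was the most abundant gene of the group, at 4488 CPM (4431 to 4545) in the first flask and 4539 (4490 to 4588) in the second. PFN1 (chromosome 17, 4945652 to 4949061), a profilin that delivers monomers to growing ends, followed at 1882 (1845 to 1919) and 1942 (1910 to 1974). Its paralog PFN2 (chromosome 3, 149964904 to 150050788), the profilin known from neurons, stood at 147 (137 to 158) and 143 (135 to 152). CFL1 (chromosome 11, 65823022 to 65862026), the cofilin that severs filaments, stood at 1424 (1392 to 1456) and 1423 (1396 to 1451).

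Among the proteins on filaments, MYL6 (chromosome 12, 56158346 to 56163496), the essential light chain of non-muscle myosin, stood at 999 CPM (972 to 1026) and 1034 (1011 to 1058). TPM1 (chromosome 15, 63042620 to 63071915), a tropomyosin that lies along filaments, had 316 (301 to 332) and 314 (301 to 327). ARPC2 (chromosome 2, 218217141 to 218254356), a subunit of the branching complex Arp2/3, had 296 (281 to 311) and 297 (284 to 309). CAPZB (chromosome 1, 19338775 to 19485539), a subunit of the protein that caps filament ends, was the least abundant, at 63.1 (56.5 to 70.2) and 58.7 (53.3 to 64.6).

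The order of the levels, TMSB10, PFN1, CFL1, ACTB, MYL6, ACTG1, TPM1, ARPC2, PFN2 and CAPZB, was the same in both flasks. TPM1 and ARPC2 had overlapping intervals in both flasks and cannot be ordered, while the intervals of all other neighbours were apart. A molecule is counted once, near its 3′ end, so these levels are not divided by gene length. Per the study's text a UMI stands for reads with a single place in the genome, so molecules of genes with near-identical copies, such as actin paralogs and their pseudogenes, can be undercounted, and levels of such genes are uncertain to that extent. SplitA over SplitB on the log2 scale ran from -0.051 for MYL6 to 0.10 for CAPZB. None of the 10 genes passed a size limit of 0.25, and 0.45% of the 1332 genes with an average of at least 0.5 UMIs per cell in both flasks did.

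**Figure D1:**
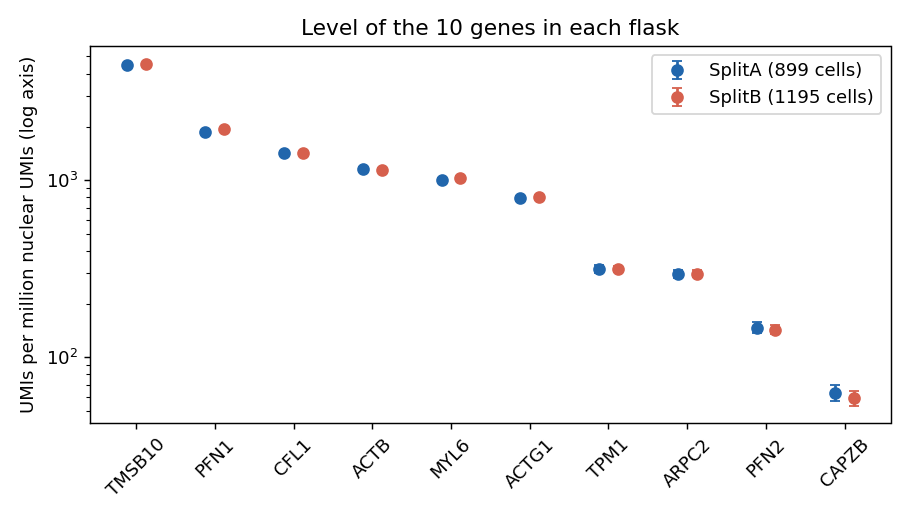
Level of each gene in SplitA (899 cells) and SplitB (1195 cells), in CPM (UMIs of nuclear-encoded genes) on a log axis, with exact 95% Poisson intervals. TMSB10 is highest at 4488 and 4539, CAPZB lowest at 63.1 and 58.7, and the points of the flasks lie side by side for every gene.

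Most cells had a UMI of the abundant genes. ACTB had no UMI in 10 cells of SplitA and 22 of SplitB, with a median of 6 and a maximum of 40 and 47 UMIs per cell. After every cell was thinned to 2000 UMIs, which left out 1 cell of SplitA and 2 of SplitB, ACTB was seen in 83.1% (80.5 to 85.5) and 80.6% (78.3 to 82.8) of cells. TMSB10 was then seen in 98.8% and 98.1%, PFN2 in 21.6% and 24.1%, and CAPZB in 10.5% and 11.2%. A line has no cell type that lacks these genes, so a background from free RNA could not be measured.

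The study asked how well common reference genes hold steady in these cells. The spread of a gene was measured as the squared coefficient of variation (CV) of its share of a cell's UMIs, after the variance that counting alone gives was subtracted. For ACTB it was 0.275 in SplitA and 0.272 in SplitB, a CV of 52.4% and 52.2%. Counting made up 30.8% and 30.4% of the variance of ACTB. Of 96 genes with a similar average of 4 to 12 UMIs per cell, 17 in SplitA and 16 in SplitB, ACTB included, had a spread at least as large, and the median over the 96 was 0.0701 and 0.0763. ACTB was therefore in the upper part of that range but not at its end. The measure gives deep cells more weight. With equal weight for every cell the average over both flasks was 1.22 and after thinning to 2000 UMIs it was 0.593, against 0.273 as reported. Such values are given for ACTB only. Its place among the 96 genes and within the group therefore holds only for the measure as reported.

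By the reported measure, TPM1 had the widest spread of the group, at 0.719 and 0.816. MYL6, at 0.276 and 0.261, was as wide as ACTB. ARPC2 came next with 0.183 and 0.242. ACTG1 had 0.132 and 0.186. TMSB10 (0.141 and 0.12), CFL1 (0.127 and 0.12) and PFN1 (0.118 and 0.134) were close to each other. For PFN2 the flasks differed, with 0.127 in SplitA and 0.0243 in SplitB, at a variance only 1.10 and 1.01 times that of counting. CAPZB was too sparse to tell, with -0.026 and 0.255. Of the 9 genes with an average of at least 0.5 UMIs, 8 had a variance over 1.2 times counting noise in both flasks, as did 43.6% of the 1332 genes. At a given spread that ratio rises with the average count, and the 9 were not matched to the 1332 for it. The counts therefore do not show that the group varies more than other genes.

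The cell cycle was followed by S and G2M scores, and no gene of the group is in the lists that define them. ACTB stood at 959 CPM (918 to 1001) in G1 cells of SplitA, 1266 (1210 to 1324) in S and 1313 (1259 to 1369) in G2M. In SplitB it stood at 1011 (976 to 1047), 1224 (1177 to 1274) and 1248 (1202 to 1295). G1 was the lowest phase in both flasks, with its interval apart from the others, while S and G2M overlapped. G2M over G1 was 1.37 in SplitA and 1.23 in SplitB, over medians of all genes of 0.997 and 0.998. Of 1332 genes, 203 were at least as high as ACTB in both flasks. With ribosomal protein genes left out of the denominator the ratio of ACTB was 1.28 and 1.16. ACTG1 did not follow, with a ratio of 1.02 and 0.93 per UMI of all nuclear-encoded genes.

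PFN2 was the 1 gene of the 9 that reached 1.25 times in G2M over G1 in both flasks, at 1.48 and 1.25, as did 18.3% of all genes tested. None was at 0.8 times or less in both flasks, against 11.5% of genes. MYL6, at 0.81 and 0.86, and ARPC2, at 0.86 and 0.84, were lower in G2M than in G1 in both flasks. So were PFN1, at 0.93 and 0.86, and CFL1, at 0.94 and 0.93. The G1 and G2M intervals were apart in both flasks for MYL6 and PFN1. For ARPC2 and CFL1 they overlapped in SplitA. G2M cells were deeper than G1 cells, with medians of 7078 against 5830 UMIs in SplitA and 6969 against 6130 in SplitB, and the part of depth in these ratios was not tested beyond the fits below.

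With mitochondrial share ACTB did not change steadily. In tertiles of that share, which hold equal numbers of cells, it stood at 1105, 997 and 1407 CPM in SplitA, from the lowest to the highest tertile, and at 1191, 978 and 1276 in SplitB. The highest tertile was 1.27 and 1.07 times the lowest, and among cells under 15% the ratio turned to 0.928 and 0.847. The higher value of the upper tertile lay in the cells at or above 15%. ACTB stood at 1044 (1013 to 1075) CPM in the 664 cells of SplitA under 10% and at 1078 (1016 to 1144) in the 165 cells from 10 to 15%. It then stood at 4381 (4027 to 4758) in the 53 cells from 15 to 30%, and at 5701 (4890 to 6608) in the 17 cells of 30% and over. In SplitB the 4 values were 1070, 1026, 3056 (2799 to 3330) and 4056 (3634 to 4513), the last 2 from 60 and 44 cells.

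The group did not move together in these cells. ACTB was 5.46 times as high at 30% and over as under 10% in SplitA and 3.79 times in SplitB, and 44 of 1332 genes, ACTB included, were at least as high in both. ACTG1 was 1.64 and 1.53 times as high, and CFL1 1.63 and 1.43 times. TMSB10 went the other way, from 4597 to 1360 CPM in SplitA and from 4644 to 1376 in SplitB, a ratio of 0.296 in both. MYL6 was at 0.632 and 0.735. PFN2 was at 0.222 and 0.679, from 1 UMI in SplitA (32.4 CPM, 0.82 to 180) and 8 in SplitB (96.6, 41.7 to 190), intervals that take in its 146 and 142 CPM under 10%. Of the 9 genes, 3 were at 1.25 times or more in both flasks and 3, PFN2 included, at 0.8 times or less, beside 28.5% and 40.6% of all genes. These cells were shallow, with a median of 2687 UMIs in SplitA and 2800 in SplitB, and ribosomal protein genes made up 13.8% and 11.6% of their nuclear-encoded UMIs, against 40.5% and 40.1% under 10%. Fewer ribosomal protein UMIs raise the share of every other gene, so the levels were also taken per UMI of the other nuclear-encoded genes. ACTB was then 3.69 and 2.56 times as high, TMSB10 stood at 0.2 of its level in both flasks, PFN1 at 0.585 and 0.589, and ACTG1 at 1448 against 1307 in SplitA and 1389 against 1342 in SplitB. On that scale 1 of the 9 genes was at 1.25 times or more and 4, PFN2 included, at 0.8 times or less in both flasks, beside 19.5% and 53.1% of the 1250 genes outside the ribosomal proteins.

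**Figure D2:**
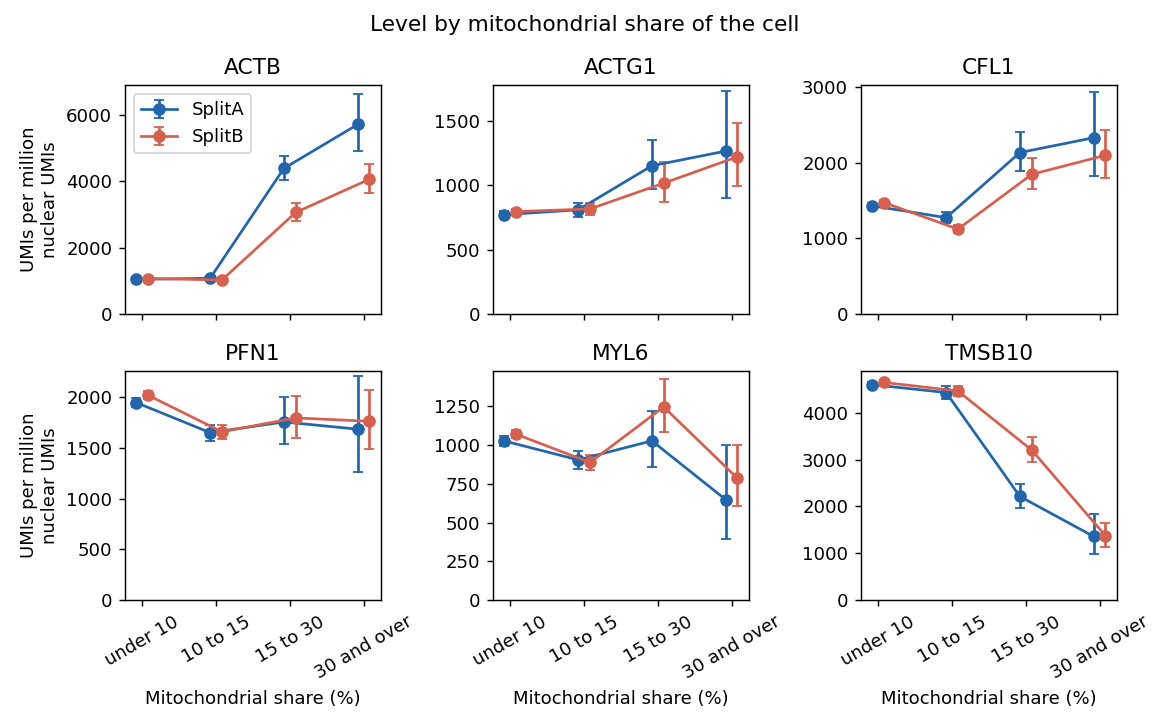
Level of 6 genes in CPM (UMIs of nuclear-encoded genes) against the mitochondrial share of the cell in 4 bands, for SplitA and SplitB, with exact 95% Poisson intervals. ACTB is flat up to 15% and then at 3056 to 5701, while TMSB10 drops to 1360 and 1376.

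By depth, only the shallowest tertile stood apart. ACTB had 1747 CPM there in SplitA and 1586 in SplitB, 973 and 1059 in the middle tertile, and 1038 and 1019 in the deepest. The part of the shallow cells of high mitochondrial share in that first value was not tested. Of the 9 genes, ACTB, CFL1, MYL6 and TPM1 were at 0.8 times or less in the deepest tertile in both flasks, and so were 22% of all genes. The ribosomal share was related to ACTB across all 3 tertiles. In the tertile of cells with the lowest ribosomal share ACTB stood at 1789 CPM (1721 to 1858) in SplitA and 1754 (1696 to 1814) in SplitB. It stood at 1060 and 1075 in the middle tertile and at 777 (739 to 817) and 771 (738 to 804) in the highest. These tertiles, in which the 3 intervals were apart in each flask, were formed after first values had been seen. The lowest was 2.30 and 2.28 times the highest, and 1.78 and 1.91 times among cells under 15% mitochondrial share. Per UMI of the other nuclear-encoded genes the ratio was 1.80 and 1.76. On that last scale ACTB, MYL6 and TPM1 were at 1.25 times or more in both flasks, 3 of the 9 beside 14.4% of genes. ACTB was the furthest of the 9 in SplitA, and TPM1, at 1.74 and 2.15, in SplitB.

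Cycle scores, mitochondrial share and depth were then entered into a Poisson regression within each flask. Together they removed 30.5% of the spread of ACTB in SplitA and -0.35% in SplitB. A negative share means that the squared CV came out larger with the fitted values than with 1 flask average. Its numerator and its denominator both change with the fit. These shares are therefore not shares of variance explained, and a negative one does not mean that a term is unrelated to ACTB. The cycle scores alone removed 18.5% and 5.87%, mitochondrial share alone 22.5% and 4.63%, and depth alone -19.7% and -20.6%. With squared terms added the share was 43.0% and 25.6%. After thinning to 2000 UMIs it was 69.9% and 41.3%, but depth is then equal in all cells and was not a term. The thinned share is thus that of cycle and mitochondrial share only. It was 11.2% and 3.64% among cells under 15% mitochondrial share, and 40.1% and 14.5% without the deepest 5% of cells. The share thus depended on the flask, on the cells and on the form of the fit. When the ribosomal share was added after first values had been seen, 67.8% of the spread was removed in SplitA and 48.8% in SplitB, and the ribosomal share alone removed 67.2% and 49.1%. The ribosomal share and the share of ACTB have the same denominator, and the part of this in the removal was not tested. With ribosomal protein genes left out of the denominator the spread of ACTB, before any term, was 0.211 and 0.213. The removal by the ribosomal share was not computed on that denominator.

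The same shares, with the limits just given, differed between the other genes. Cycle, mitochondrial share and depth removed 36.0% and 14.2% of the spread of CFL1, 33.4% and 15.5% of that of MYL6, and 13.7% and 8.18% of that of PFN1. For ACTG1 the share was -3.71% and -6.78%, and with the ribosomal share added it was 1.71% and 0.706%. TPM1, the widest of the group, kept most of its spread with all terms, at 0.631 in SplitA and 0.737 in SplitB. TMSB10 kept 0.133 and 0.110.

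**Figure D3:**
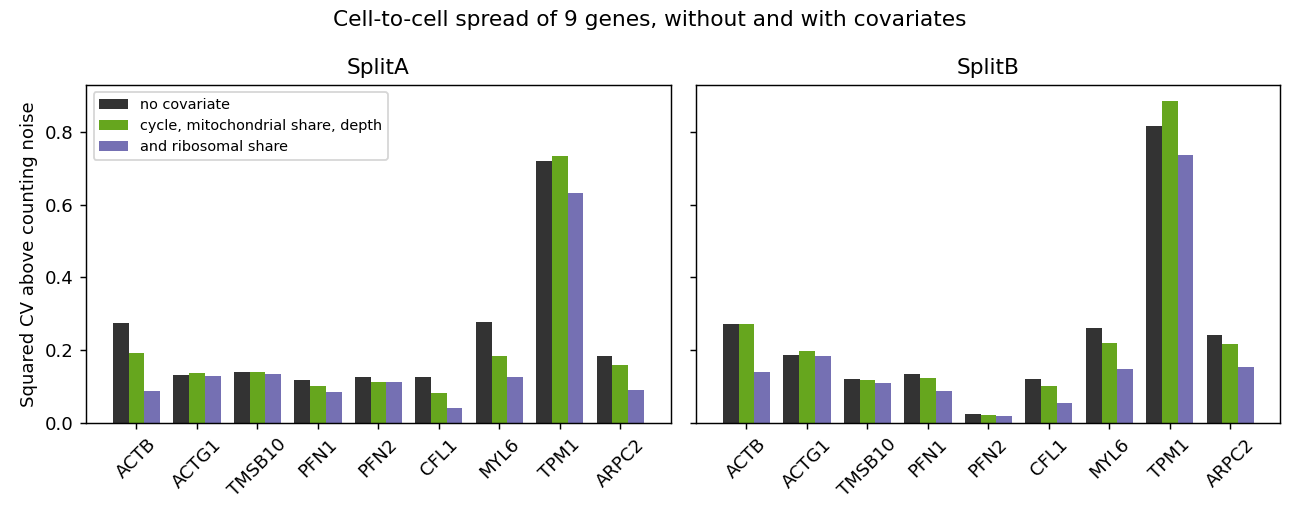
Squared CV above counting noise of 9 genes in SplitA and SplitB, without covariates, with cycle, mitochondrial share and depth, and with the ribosomal share added. The bar of ACTB goes from 0.275 to 0.191 and 0.0883 in SplitA and from 0.272 to 0.273 and 0.139 in SplitB, while those of ACTG1 and TPM1 stay near their first height.

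Co-variation was measured over the 899 and 1195 cells as a correlation r of the shares, corrected for counting noise. It is given where both genes had a squared CV of at least 0.01 in both flasks, which left 36 of the 45 pairs, all without CAPZB. The correction divides by an estimated spread, so r of sparse genes can pass 1. All cells share 1 library, and r describes them without a test. ACTB varied most closely with ACTG1, at r = 0.55 in SplitA and 0.65 in SplitB, and next with CFL1, at 0.42 and 0.37. Before correction the values were 0.33 and 0.38 for ACTG1 and 0.27 for CFL1 in both flasks.

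With the other 6 genes r was below 0.3 in at least 1 flask. TPM1 had 0.19 and 0.29, ARPC2 0.22 and 0.14, MYL6 0.14 and 0.29, PFN1 0.11 and 0.24, PFN2 0.094 and 0.31, and TMSB10 0.050 and 0.093. The last of these, between the most abundant gene of the group and ACTB, is too weak to be read, and its sign depended on the setting. It was -0.084 and -0.049 before correction, and -0.12 and -0.090 with a denominator without these genes and the ribosomal proteins. It was 0.17 and 0.13 after cycle, mitochondrial share and depth, and 0.19 and 0.18 in cells under 15% mitochondrial share. The median over the 8 was 0.16 and 0.29, against 0.12 and 0.13 over the 1152 genes scanned. With r of at least 0.3 in both flasks stood 2 of the 8, and 19.4% of the 1152 genes did so.

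By corrected r without covariates, links tighter than any between ACTB and an actin-binding gene ran among CFL1, MYL6, PFN1, ARPC2 and TPM1. CFL1 and MYL6 had r = 0.79 and 0.80, PFN1 and CFL1 0.73 and 0.77, PFN1 and ARPC2 0.56 and 0.50, PFN1 and MYL6 0.54 and 0.55, and MYL6 and TPM1 0.50 and 0.38. With ACTB and ACTG1 and ACTB and CFL1 these made 7 of the 36 pairs at 0.3 or more in both flasks. Before correction, PFN1 and ARPC2 had 0.21 and 0.23, less than ACTB and CFL1 in both flasks. After cycle, mitochondrial share and depth, MYL6 and TPM1 had 0.45 and 0.34, also less. Either way, CFL1 with MYL6 and PFN1 with CFL1 were above ACTB with CFL1 in both flasks, and PFN1 with MYL6 was below it in SplitA only. The median over the 36 was 0.14 and 0.21. It was 0.030 and 0.048 with a denominator that left out these genes and the ribosomal proteins. No share over pairs of other genes was computed, so the pair counts here and below cannot be read as particular to the group. ACTG1 had no such link other than with ACTB, and its r with PFN1 was -0.089 and -0.069.

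After cycle, mitochondrial share and depth the ACTB to ACTG1 value was 0.67 and 0.72 and that of ACTB to CFL1 0.52 and 0.45. The count of such pairs was 8, with CFL1 and ARPC2 added at 0.61 and 0.59. For ACTB 2 of the 8 genes were again at 0.3 or more in both flasks, beside 19.9% of the 1047 genes that could be scanned. In cells under 15% mitochondrial share it was also 2 of 8, beside 15.6% of 1151 genes, with 0.57 and 0.68 for ACTG1 and 0.38 and 0.34 for CFL1. With the ribosomal share as a further term 4 pairs stayed at 0.3 or more. These were ACTB and ACTG1 at 0.74 and 0.77, PFN1 and CFL1 at 0.61 and 0.67, PFN1 and ARPC2 at 0.69 and 0.39, and CFL1 and MYL6 at 0.49 and 0.59. ACTB and CFL1 stood at 0.063 and -0.0068. With a denominator that left out these genes and the ribosomal proteins, ACTB and ACTG1 stood at 0.43 and 0.58, ACTB and CFL1 at 0.22 and 0.17, and the median over the 8 at -0.021 and 0.091.

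**Figure D4:**
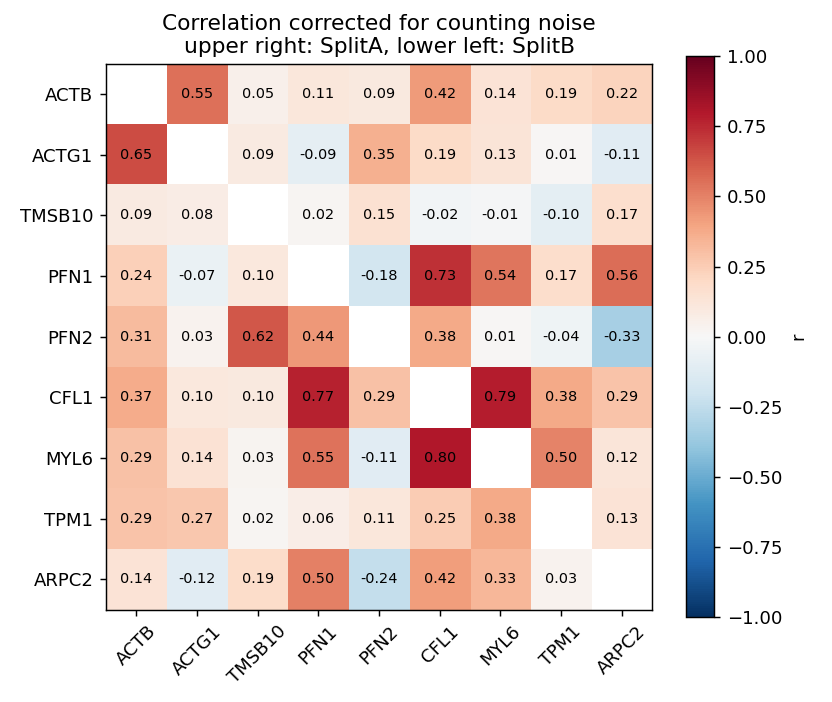
Correlation corrected for counting noise between 9 genes, SplitA above and SplitB below the diagonal, on a colour scale from -1 to 1. The CFL1 and MYL6 cells (0.79 and 0.80) are darkest, and the ACTB row stands out only at ACTG1 (0.55 and 0.65) and CFL1 (0.42 and 0.37).

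The share of ACTB among the UMIs of ACTB and ACTG1 does not depend on the denominator of a cell. It was 59.5% (58.5 to 60.4) in SplitA and 58.6% (57.7 to 59.4) in SplitB. Its variance from cell to cell was 1.45 and 1.5 times the binomial one, a standard deviation above counting of 10.2 and 9.24 percentage points. The share was 54.5% in G1 in both flasks, 63.1% and 61.2% in S and 61.6% and 61.3% in G2M, with the G1 intervals of 52.8 to 56.1 and 53.2 to 55.8 below those of the other phases. It was 51.8% and 50.8% in the tertile of cells with the highest ribosomal share and 66.6% and 65.8% in the lowest. From under 10% to 30% and over of mitochondrial share it went from 57.5% to 81.9% (76.0 to 86.8) in SplitA and from 57.4% to 76.9% (72.6 to 80.8) in SplitB. PFN1 made up 92.7% (92.2 to 93.2) and 93.1% (92.7 to 93.5) of the profilin UMIs. In G1 that share was 94.0% and 94.1%, in G2M 90.8% and 91.7%.

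Other genes of the actin pathway, in lists chosen with earlier results of these data known, were set against ACTB in the same way and against the same 19.4%. Of the Arp2/3 and nucleation genes 3 of 7 scanned were at 0.3 or more in both flasks, with ARPC3 at 0.51 and 0.31, ARPC4 at 0.47 and 0.41 and ARPC5 at 0.32 and 0.42, but ARPC1A at 0.13 and -0.30. Of the myosin and tropomyosin genes it was 3 of 5, with TPM3 at 0.58 and 0.33, TPM4 at 0.49 and 0.36 and the myosin light chain MYL12A at 0.46 and 0.43. CALD1, the most abundant of that list, had 0.078 and 0.19, and MYL12B had 0.49 and 0.23. Of the crosslinkers and membrane linkers it was 4 of 6, among them FSCN1, which bundles filaments, at 0.79 and 0.47, TAGLN2 at 0.36 and 0.38 and SPTBN1, a spectrin, at 0.51 and 0.57, whereas the abundant MARCKSL1 had 0.084 and -0.011. Of the monomer binding and turnover genes it was 1 of 4, CAP1, at 0.47 and 0.65. TMSB4X, the most abundant of that list, had 0.10 and 0.046, TMSB15A 0.19 and 0.20, and DSTN -0.17 and 0.26. The 1 gene scanned of capping and elongation, ENAH, had -0.096 and 0.25. The listed SRF and MRTF targets and the other actin isoforms were too sparse for a value, with ZYX the most abundant target at 55.3 and 53.9 CPM.

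Tubulins and glycolysis enzymes, from lists of the same kind, were scanned as well. The 5 tubulins scanned were all at 0.3 or more, with a median r of 0.70 and 0.54, TUBA1A at 0.73 and 0.60 and TUBB at 0.70 and 0.54. Of 8 glycolysis enzymes 5 were, with a median of 0.58 and 0.52 and PKM, the pyruvate kinase, at 0.86 and 0.71. GAPDH, another common reference gene, had 0.36 and 0.25. After cycle, mitochondrial share and depth the tubulins had a median of 0.59 and 0.54 (4 of 5), the glycolysis enzymes 0.48 and 0.53 (7 of 8) and the myosin and tropomyosin genes 0.56 and 0.40 (4 of 5), with no test between the lists.

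Over all 1152 genes, ACTG1 ranked 46th and CFL1 161st in likeness to ACTB, by the smaller corrected r of the flasks, and TMSB10 585th. The 10 genes most like ACTB were HNRNPM (0.98 and 0.79), CCT2 (0.75 and 0.76), RAB7A (0.82 and 0.74), PRAME (0.88 and 0.74), HNRNPF (0.73 and 0.87), HDAC2 (0.72 and 1.00), BSG (0.75 and 0.71), HNRNPDL (0.94 and 0.71), PKM and CCT5 (0.71 and 0.70). Of these, 7 had an average under 1 UMI per cell, where r is least certain. The order rests on the correction. Before it, RAB7A had 0.12 and 0.11 and HNRNPF 0.25 and 0.20, below the 0.33 and 0.38 of ACTG1. PKM (0.62 and 0.50) and CCT5 (0.51 and 0.42) were above ACTG1 in both flasks. The rest of the 10 were above it in SplitA and below it in SplitB. BSG, HNRNPDL and PKM had 1.64 to 2.12 UMIs per cell. Among cells under 15% mitochondrial share, CCT5 and PRAME had no r with ACTB in either flask, and HDAC2 had none in SplitB. The likeness of CCT5, PRAME and HDAC2 to ACTB in both flasks is therefore not shown apart from the cells at or above 15%. At the other end, 8.33% of the genes had r of -0.3 or less in both flasks and none of the 8 actin and actin-binding genes did. The 5 lowest were all ribosomal protein genes, RPL24 (-0.65 and -0.67), RPL32 (-0.74 and -0.64), RPL11 (-0.64 and -0.67), RPL13A (-0.68 and -0.62) and RPS25 (-0.67 and -0.61). Of 77 ribosomal protein genes 72 were at -0.3 or less in both flasks. Ribosomal protein genes made up a median of 39.7% and 39.5% of the nuclear-encoded UMIs of a cell. Shares of 1 total trade off against each other, and the part of this in the negative values was not tested.

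**Figure D5:**
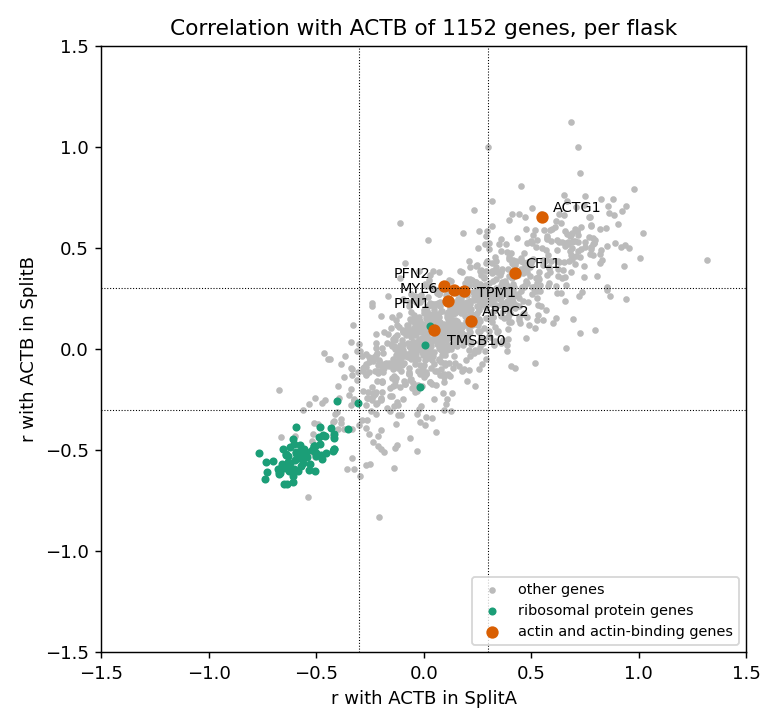
Correlation with ACTB, corrected for counting noise, in SplitA (horizontal) and SplitB (vertical) for 1152 genes, with dotted lines at -0.3 and 0.3. ACTG1 and CFL1 lie beyond 0.3 in both flasks, the other actin-binding genes lie near the middle of the cloud, and ribosomal protein genes fill the lower left.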

How the data were processed

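The 10 genes and the gene lists were chosen with earlier results of these data known. The authors mapped the reads with STAR 2.7 to GRCh38 and made UMI counts with Cell Ranger 4.0.0, and the deposited counts are whole numbers per gene and cell without normalization. Counts of the 2 hashtags stand in the same table. Symbols were matched by identifier from a reference table, in which 24935 of the 33538 identifiers have a symbol other than the identifier itself. Phases were scored with Seurat 5.3.0 in R 4.3.3 (42 of 43 S and 52 of 54 G2M genes found). The remaining steps used numpy 2.4.6, pandas 2.3.3 and scipy 1.17.1 in Python 3.11.15. Each flask was fitted alone. The squared CV above counting noise is the summed squared deviation minus the summed expected count, over the summed squared expected count, where the expected count is the flask share times the nuclear-encoded UMIs of the cell. Correlations divide the cross product by the root of both squared CVs. Covariates entered a Poisson regression with the log of those UMIs as offset. Genes scanned had an average of at least 0.5 UMIs and a squared CV of at least 0.02 in both flasks. Calls used r of 0.3, ratios of 1.25 or 0.8 and a log2 limit of 0.25. Genes named outside the group are the 10 highest and 5 lowest in r with ACTB and up to 5 per list by UMI sum, and the actin isoforms at or near 0. The spread, the correlation and the covariate fit were tested on simulated counts with a squared CV of 0 or 0.25. Correlations at the smaller spreads that the scan admits were not simulated, nor were phase scoring, thinning and hashtag calls. Alternatives concerned denominators, hashtag and gene limits, mitochondrial share, depth, cycle lists, form of the fit, thresholds and leaving out each flask.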

Additional observations from a re-analysis of the deposited data

How the results depend on the processing

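No paired analysis was possible because both flasks have the same condition and lie in 1 library. In the shallow cells of high mitochondrial share, low depth and a low ribosomal share came together, and the part of each was not tested. Fewer molecules per cell cannot be told from loss of RNA. No result below has a test. The spread of ACTB (0.273) was 0.266 with all UMIs as denominator, 0.290 with a hashtag limit of 100, 0.326 with cells of at least 500 genes, 0.223 under 15% mitochondrial share, 0.593 thinned to 2000 UMIs, 0.320 without the deepest 5% of cells, 0.272 to 0.275 without either flask and, chosen after seeing the data, 1.22 with equal weight for every cell and 0.212 with a denominator without ribosomal protein genes. The share removed by cycle, mitochondrial share and depth (15.1%) was 55.6% after thinning, where depth is constant and was not a term. It was -0.348% to 30.5% without either flask. With the ribosomal share, a term chosen after seeing the data that has the same denominator as ACTB, it was 58.3%. The median r with ACTB (0.23) was 0.035 with a denominator without the group and ribosomal protein genes, 0.12 uncorrected and 0.16 to 0.29 without either flask. After the covariates (0.25) it was 0.38 thinned (again without depth as a term), 0.32 without the deepest cells, 0.11 with that denominator, 0.12 uncorrected, 0.19 to 0.33 without either flask (SplitB alone also gives CAPZB, and has 0.30 over the same 8 genes), and it turned to -0.020 with the ribosomal share. ACTB in the highest over the lowest tertile of mitochondrial share (1.17) was 2.27 with cells of at least 500 genes, 1.45 thinned, 1.07 to 1.27 without either flask, and turned to 0.887 under 15%. G2M over G1 (1.30) was 1.23 to 1.37 without either flask and moved by less than the spread of the flasks under the other alternatives run. The genes with r of at least 0.3 (224) numbered 50 thinned, 56 uncorrected, 84 with an average of at least 1 UMI, 537 with at least 0.2, 109 with the denominator without ribosomal protein genes and 316 to 360 in 1 flask alone. The limit between flasks was passed by none of the 10 genes under every alternative run. The causes of these moves were not tested.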

Other observations

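Below the limit of 1000 genes lay 280 singlets of SplitA and 410 of SplitB, with a median of 1460 and 1355 UMIs and a median mitochondrial share of 32.6% and 36.7%. ACTB stood at 5327 CPM (UMIs per 1000000 UMIs of nuclear-encoded genes, 5062 to 5604) in those of SplitA and 4714 (4496 to 4941) in those of SplitB, 4.60 and 4.13 times its level in the described cells of the same flask. TMSB10, the monomer-binding thymosin, stood at 1763 and 2103, or 0.393 and 0.463 times. ACTG1 was 1.77 and 1.29 times as high and CFL1 1.61 and 1.5 times, while PFN1 stood at 0.869 and 0.818 and CAPZB at 2.36 and 2.48, the last from 42 and 54 UMIs. Those of at least 500 genes enter the values given above for that limit. Free RNA and damaged cells in this set were not tested.

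Of the mesenchymal-type neuroblastoma markers 9 of 10 had UMIs in both flasks, summing to 2343 and 2500 CPM, with PRRX1 at 0. The 10 sympathoadrenal markers summed to 3884 and 3743 CPM. Of the fibroblast markers COL1A2 and DCN were at 0 in both flasks, the 4 together summing to 25 and 41 UMIs.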
